A study of Mus musculus with 12 samples.

Results

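Fat that grows under excess feeding takes in macrophages and other white blood cells, and a small set of microRNAs is known to go with these cells. MicroRNAs are short RNAs that bind messenger RNAs through a seed near their 5′ end and lower the protein made from them. MiR-223 and miR-142 are made mainly in blood cells, the first above all in neutrophils and macrophages and the second throughout the white lineage. MiR-155 and miR-146a are induced when innate immune receptors activate NF-kappaB: miR-155 reinforces inflammation, while the miR-146 pair restrains it by targeting the signalling adaptors Irak1 and Traf6. MiR-21 is abundant in most tissues, fat cells and stroma included, and rises in many inflamed ones.

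The main arms of miR-21a, miR-146a, miR-146b, miR-155 and miR-223 and both arms of miR-142 were taken from a quantitative RT-PCR table of epididymal fat of male C57BL/6J mice. These were 7 of 504 microRNA assays, chosen by name, with earlier results of these data known. Mice of the group CD met only the control diet, with 10% of energy from fat, 70% from carbohydrate and 20% from protein. The high-fat diet of the other groups had 45% from fat, 35% from carbohydrate and 20% from protein. UT mice met it in utero through the dam, UL mice from mating to weaning, and WL mice from mating to the end at 23 weeks. WL was therefore the group on high-fat diet when fat was taken. Each group was profiled as 3 pools, from 12 mice per group, and a pool hides the spread between its mice. The labels do not say which litters went into which pool, so p-values measure the spread between pools.

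The mature sequences, from RefSeq for GRCm38.p6, show which members could share targets. Each is written 5′ to 3′ with the seed, bases 2 to 8, in capitals.
mmu-miR-21a-5p: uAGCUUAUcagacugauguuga
mmu-miR-146a-5p: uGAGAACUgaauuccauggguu
mmu-miR-146b-5p: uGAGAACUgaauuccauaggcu
mmu-miR-155-5p: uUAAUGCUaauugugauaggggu
mmu-miR-223-3p: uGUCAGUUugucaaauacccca
mmu-miR-142-5p: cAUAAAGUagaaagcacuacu
mmu-miR-142-3p: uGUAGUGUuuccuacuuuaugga

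Only miR-146a-5p and miR-146b-5p shared a seed among these members. Counted from the 5′ end, they differed at 2 of 22 bases, G18A and U21C from miR-146a to miR-146b, so that an assay must tell them apart by their 3′ part. How far each assay does so is not known here. The 2 come from different chromosomes: Mir146, as RefSeq names the miR-146a hairpin, lies at chr11:43374397-43374461 on the minus strand, and Mir146b at chr19:46342762-46342870 on the plus strand.

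The other members each had a seed that no other measured assay carried. Mir21a lies at chr11:86584067-86584158 on the minus strand, overlapping Vmp1. Mir155 lies at chr16:84714140-84714204 on the plus strand within its host transcript Mir155hg. Mir223 lies at chrX:96242817-96242926 on the plus strand, overlapping F630028O10Rik. The assays named miR-142 matched the RefSeq entries miR-142a, from the hairpin Mir142 at chr11:87756864-87756927 on the plus strand, which overlaps Mir142b, annotated at the same place. The hairpins of miR-142 and miR-223 are shown because both arms were measured, with the arms in capitals.
Mir142: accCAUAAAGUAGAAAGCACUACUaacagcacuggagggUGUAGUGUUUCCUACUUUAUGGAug
Mir223: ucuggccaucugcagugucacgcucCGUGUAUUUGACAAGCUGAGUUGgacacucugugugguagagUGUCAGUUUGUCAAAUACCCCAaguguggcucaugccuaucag

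Levels are given relative to the pool: the mean threshold cycle (Ct) of the 466 microRNAs measured in all 12 pools minus the Ct of the assay. A higher value means an earlier cycle, and 1 cycle is a log2 unit if the PCR doubles its product each cycle. All 7 members gave a value in all 12 pools. Assay efficiencies were not measured here, so the order of members is one of Ct and need not be one of amounts.

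Pool WL 3 stood apart in the whole table. Of its 495 assays with a value, 9.70% lay more than 2 cycles from the median of the other pools, 26 above and 22 below, against 7.21% in UT 3, the next pool. Markers of several cell types were placed on the same scale. MiR-26a-5p, let-7b-5p and let-7c-5p, abundant in fat, stood at 7.77, 8.48 and 8.34 cycles above the average microRNA. They were the highest of 11 measured fat and stroma markers, the lowest being miR-107-3p at -0.25. The 2 endothelial markers, miR-126a-3p and miR-126a-5p, stood at 7.47 and 6.97. The 4 erythroid markers ran from 0.56 (miR-486-3p) to 7.12 (miR-16-5p), so high levels alone did not single out fat. The 5 muscle markers ran from -3.28 (miR-208a-3p) to 0.90 (miR-133a-3p). The 6 epithelial markers stood from 1.45 (miR-429) to 3.48 (miR-200c-3p). Those of testis and epididymis, 8 in number, ran from -6.50 (miR-471) to 4.69 (miR-742-3p). Of 3 liver markers, miR-122-5p stood at -0.90, miR-192-5p at 0.63 and miR-194-5p at 0.56. Of 5 neural markers, miR-9-5p, miR-9-3p and miR-219a-5p stood at -2.07, -3.89 and -4.51, but miR-124-3p at 3.80 and miR-129-5p at 2.20.

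MiR-21a-5p was the earliest member, the 7th of the 504 microRNAs, at 7.94 cycles above average over the 12 pools. It exceeded miR-142-3p, the next member at 4.00, in 12 of 12 pools, and their ranges did not overlap. MiR-142-3p and miR-146a-5p, at 3.73, did not stand in a fixed order: the first was higher in 7 of 12 pools. MiR-223-3p, at 1.79, and miR-146b-5p, at 1.68, were likewise undecided, with the first higher in 6 of 12 pools. MiR-155-5p, at -0.91, lay below miR-146b-5p in all 12 pools, and miR-142-5p was last at -1.51, below miR-155-5p in 10 of 12. Between these groups, miR-146a-5p lay above miR-223-3p in 11 of 12 pools. The mean Ct ran from 16.9 for miR-21a-5p to 26.4 for miR-142-5p.

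**Figure D1:**
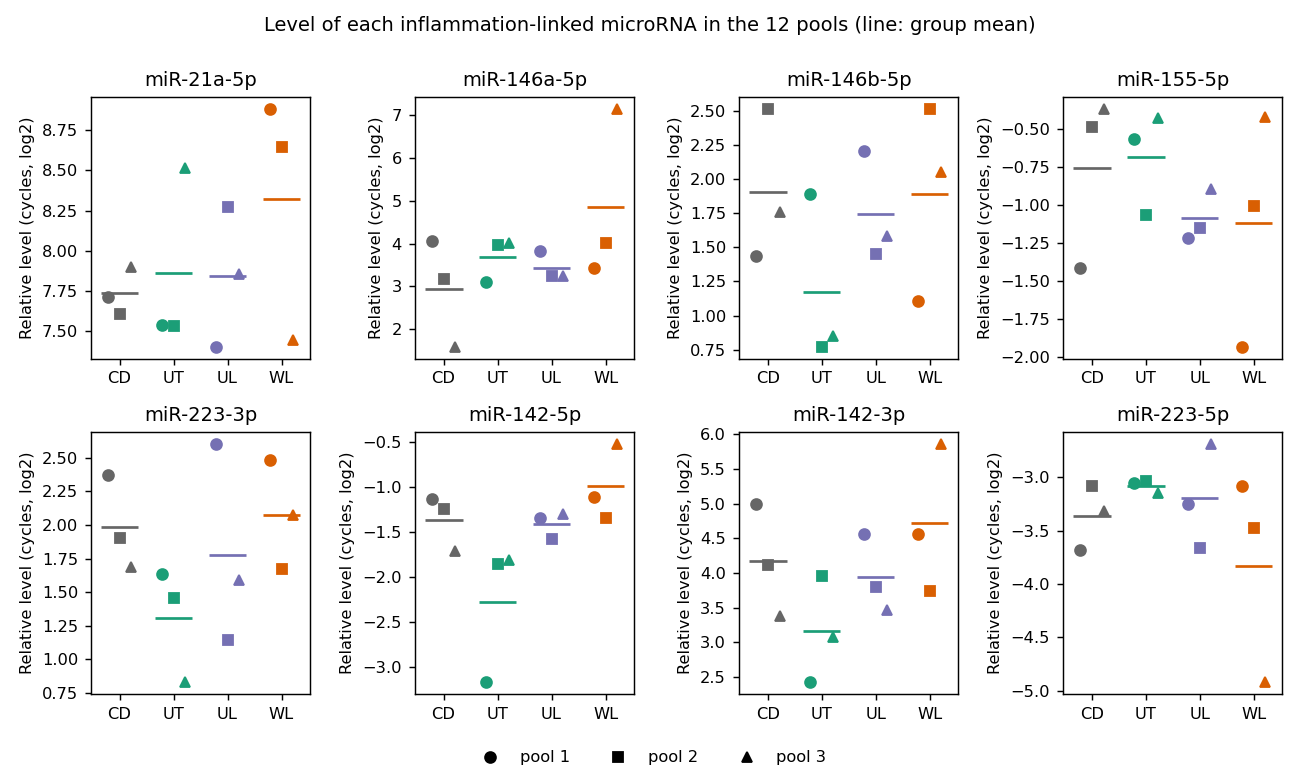
Relative level in log2 cycles (vertical, own scale per panel) of the 7 inflammation-linked microRNAs and of miR-223-5p in the 3 pools of each group, with a line at the group mean. WL 3 is the highest pool for miR-146a-5p, at 7.15, and UT 1 the lowest for both arms of miR-142.

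No member passed an adjusted p of 0.05 in any comparison. Over all 504 microRNAs, limma called 1.39% for UT against CD, 0.595% for UL against CD and 0.595% for WL against CD. It called 0.397% for WL against the mean of the other groups, 0.397% in the F test over the 4 groups, and 0% for UL against UT, WL against UT and WL against UL. At an unadjusted p under 0.05, 1 of 7 members was called for UT against CD, where the share of all microRNAs was 10.1%, 0 for UL against CD (2.78%) and 1 for WL against CD (7.14%). The counts were 0 for UL against UT (7.94%), 2 for WL against UT (15.7%), 0 for WL against UL (5.36%), 0 for WL against the other groups (9.72%) and 1 in the F test (9.92%). Such counts out of 7 are near the shares of all microRNAs and are no result about the members.

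The median log2 fold change of the 7 members was -0.68 in UT, -0.16 in UL and 0.38 in WL against CD, beside -0.01, -0.07 and -0.06 over all microRNAs. With 1 pool of a comparison left out, the members' median ran from -0.80 to -0.43 in UT. It ran from -0.27 to 0.075 in UL, and from 0.093 (without WL 3) to 0.49 in WL. Scaling to the small nucleolar RNA RNU-43 moved the median of all microRNAs to 0.73 in UT and 0.30 in UL, so directions below are relative to the average microRNA. The 3 comparisons share the CD pools.

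**Figure D2:**
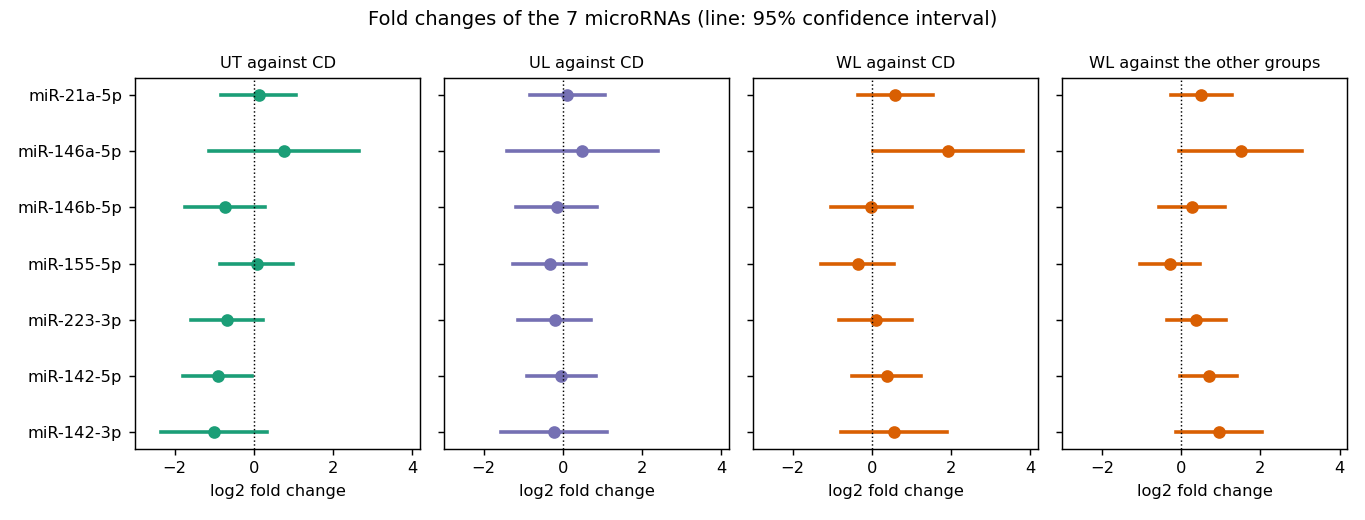
Log2 fold change (horizontal) of each of the 7 microRNAs in UT, UL and WL against CD and in WL against the mean of the other groups, as points with 95% confidence intervals from limma. The interval lies to one side of 0 for miR-142-5p in UT, from -1.78 to -0.04, and for miR-146a-5p in WL, from 0.03 to 3.82.

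Among the 7, the arms of miR-142 had the lowest fold changes after exposure in utero, with neither past the test. MiR-142-5p stood at -1.13, -1.25 and -1.71 in CD, -3.16, -1.86 and -1.81 in UT, -1.34, -1.58 and -1.30 in UL, and -1.10, -1.34 and -0.52 in WL. Every UT pool lay below every CD, UL and WL pool, with UT 1 far below the rest. Against CD, UT was 0.531-fold (log2 -0.91, SE 0.40, 95% interval -1.78 to -0.04; limma adjusted p = 0.468).

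MiR-142-3p, the other arm of the same hairpin, stood at 5.00, 4.11 and 3.39 in CD, 2.43, 3.96 and 3.08 in UT, 4.56, 3.79 and 3.47 in UL, and 4.56, 3.74 and 5.86 in WL. Here UT overlapped the other groups, UT 1 was again the lowest pool, and WL 3 the highest. The fold change in UT was 0.497 (log2 -1.01, SE 0.61, limma adjusted p = 0.612). Without UT 1, the log2 fold change was -0.47 for miR-142-5p and -0.64 for miR-142-3p, and scaled to RNU-43 it was -0.17 and -0.27. Without CD 1, miR-142-3p was at -0.59. In bulk fat, fewer white cells and less microRNA per cell cannot be told apart.

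The 2 arms of miR-142 were compared within each pool, where no scaling enters. The 3p arm came 5.50 ± 0.50 cycles earlier than the 5p arm (SD over 12 pools), from 4.77 in UL 3 to 6.38 in WL 3. Among 465 other microRNAs, miR-142-5p was the one most like miR-142-3p across the 12 pools, with a root mean square difference of 0.48 cycles after each was centred on its own mean. The reverse did not hold: miR-324-3p, at 0.37, and miR-150-5p, a lymphocyte microRNA, at 0.38, were nearer to miR-142-5p, and miR-142-3p was the 11th.

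MiR-223-3p stood at 2.37, 1.90 and 1.69 in CD, 1.64, 1.45 and 0.83 in UT, 2.60, 1.14 and 1.59 in UL, and 2.49, 1.67 and 2.07 in WL. UT lay below CD in every pool, by a narrow margin at UT 1 and CD 3. UT against CD was 0.625-fold (log2 -0.68, SE 0.42, limma adjusted p = 0.612), and scaled to RNU-43 the direction turned, at 0.06. Without UT 3 the log2 fold change was -0.44. MiR-223-3p and miR-142-5p were the 2 of 7 members whose UT and CD ranges did not overlap, both lower in UT, where 14% of all microRNAs did not overlap in either direction. In UL against CD 0 of 7 were apart (7.88% of all) and in WL against CD 0 of 7 (11% of all).

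The partner arm miR-223-5p, a less abundant product of that hairpin, stood at -3.68, -3.09 and -3.31 in CD, -3.05, -3.04 and -3.15 in UT, -3.25, -3.66 and -2.69 in UL, and -3.08, -3.48 and -4.92 in WL. UT overlapped CD, at 0.28 on the log2 scale (limma adjusted p = 0.886), and WL 3 was the lowest pool. Within pools, miR-223-3p came 6.05, 4.99 and 5.00 cycles before miR-223-5p in CD and 4.69, 4.49 and 3.98 in UT. All 3 UT pools thus had a smaller arm difference than all 3 CD pools, by 0.96 on average (exact permutation p = 0.10, two-sided, the smallest that 3 against 3 allows). The 3 high-fat comparisons and the WL comparison for 3 assay pairs made 12 tests, and the Benjamini-Hochberg adjusted value was 0.60. In UL the arm difference was 5.85, 4.80 and 4.28, and in WL 5.57, 5.15 and 6.99.

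**Figure D3:**
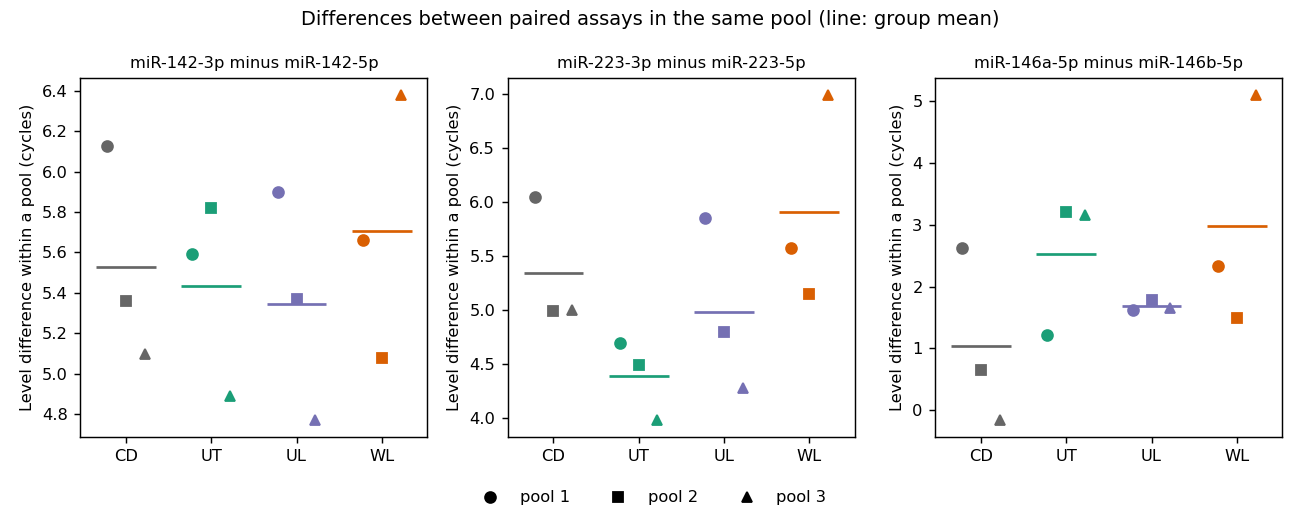
Difference in relative level between 2 assays within the same pool, in cycles (vertical), for the arms of miR-142, the arms of miR-223 and the miR-146 pair, by group, with a line at the group mean. WL 3 has the highest value in all 3 panels, at 6.38, 6.99 and 5.10 cycles.

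Among the innate feedback microRNAs, miR-146a-5p varied most. It stood at 4.05, 3.16 and 1.60 in CD, 3.11, 3.97 and 4.01 in UT, 3.82, 3.24 and 3.23 in UL, and 3.44, 4.00 and 7.15 in WL. Of the 3 WL pools, only WL 3 exceeded the CD, UT and UL pools, and CD 3 was the lowest of all. WL against CD was 3.80-fold (log2 1.93, SE 0.87, 95% interval 0.03 to 3.82; limma adjusted p = 0.663), and 0.78 without WL 3 and 1.25 without CD 3.

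The extreme values of miR-146a-5p were set against the rest of the same pools. In WL 3, miR-146a-5p lay 3.72 cycles above the median of the other pools, the 14th highest deviation in that pool, and in CD 3 it lay 2.23 below, the 3rd lowest there. The 10 assays nearest to it in the order of assay accession deviated in WL 3 by a median of 0.26, from -0.24 to 2.07, the highest being miR-142-3p. Its SD within groups, 1.22, was larger than that of 89.5% of 466 microRNAs, whose median was 0.52. Whether the high value comes from the tissue or the assay was not tested.

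MiR-146b-5p, with the same seed, did not follow. It stood at 1.44, 2.51 and 1.76 in CD, 1.89, 0.77 and 0.85 in UT, 2.20, 1.45 and 1.58 in UL, and 1.11, 2.51 and 2.05 in WL. In WL 3, where miR-146a-5p was highest, it lay inside the range of the CD pools. Its log2 fold change was -0.73 in UT (SE 0.46, limma adjusted p = 0.617), or -0.43 without CD 2, and -0.01 in WL (SE 0.46, limma adjusted p = 0.995).

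The difference miR-146a-5p minus miR-146b-5p was 2.06 ± 1.37 cycles over the 12 pools, from -0.16 in CD 3 to 5.10 in WL 3. The UL pools lay close together, at 1.62, 1.79 and 1.65. WL exceeded the other groups by 1.22 cycles (exact permutation p = 0.209, two-sided, 220 arrangements), and by 0.16 without WL 3 (exact permutation p = 0.927, 55 arrangements).

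MiR-155-5p, the inducible microRNA of activated macrophages and lymphocytes, had overlapping ranges in the 4 groups. Its levels were -1.42, -0.49 and -0.36 in CD, -0.56, -1.07 and -0.43 in UT, -1.22, -1.15 and -0.90 in UL, and -1.93, -1.01 and -0.42 in WL. Each group held both high and low pools except UL, and the lowest pool was WL 1. The log2 fold change was 0.07 in UT, -0.33 in UL and -0.37 in WL (SE 0.42 each; limma adjusted p = 0.994, 0.995 and 0.956). The WL interval ran from 0.409-fold to 1.47-fold.

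MiR-21a-5p stood at 7.71, 7.60 and 7.90 in CD, 7.54, 7.53 and 8.51 in UT, 7.40, 8.27 and 7.85 in UL, and 8.89, 8.64 and 7.44 in WL. WL 1 and WL 2 were the highest of the 12 pools, while WL 3, the pool that stood apart, was among the lowest. WL against CD was 1.5-fold (log2 0.59, SE 0.43, 95% interval -0.36 to 1.53; limma adjusted p = 0.873). The log2 fold change was 1.03 without WL 3 (limma adjusted p = 0.383) and 0.30 without WL 1. WL 3 thus lowered the WL mean of miR-21a-5p while it raised that of miR-146a-5p.

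The WL pools, the ones on high-fat diet when sampled, were also set against the 9 others. The log2 difference was above 0 for 6 of 7 members (43.5% of all) and had a median of 0.51, beside -0.08 over all microRNAs. It was 1.51 for miR-146a-5p (exact permutation p = 0.0591, 220 arrangements), 0.96 for miR-142-3p (exact permutation p = 0.132), 0.69 for miR-142-5p (exact permutation p = 0.123) and 0.51 for miR-21a-5p (exact permutation p = 0.145). It was 0.39 for miR-223-3p, 0.28 for miR-146b-5p and -0.28 for miR-155-5p. The limma adjusted p of the 7 ran from 0.471 to 0.797. None of the 7 had all WL pools above the other 9, where 1.29% of all microRNAs had ranges apart. Without WL 3 the difference was 0.36 for miR-146a-5p, 0.39 for miR-142-3p, 0.46 for miR-142-5p and 0.95 for miR-21a-5p. Without WL 1 it was 0.23 for miR-21a-5p. The 9 others include the UT pools, and the members' median in WL was 0.38 against CD, 0.77 against UT and 0.42 against UL. Against CD alone 5 of 7 were above 0 (43.5% of all), with miR-223-3p at 0.09 and miR-146b-5p at -0.01. The 6 members above 0 against the 9 others include both arms of miR-142, which come from 1 hairpin.

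Between the high-fat groups, the miR-142 arms gave the lowest p-values of the set in the comparisons with UT. For WL against UL the lowest was that of miR-146a-5p (log2 1.43, SE 0.87, limma adjusted p = 0.805). For WL against UT, miR-142-5p was 2.44-fold (log2 1.29, SE 0.40, 95% interval 0.42 to 2.16; limma adjusted p = 0.192), and miR-142-3p 2.95-fold (log2 1.56, SE 0.61, limma adjusted p = 0.262). MiR-142-5p was at 0.85 without UT 1 and at 0.56 scaled to RNU-43, and miR-142-3p at 0.99 without WL 3 and at 0.84 scaled to RNU-43. The WL and UT ranges were apart for miR-142-5p and miR-223-3p and overlapped for the other members, where 19.3% of all microRNAs were apart. For UL against UT, miR-142-5p had a log2 difference of 0.87 (SE 0.40, limma adjusted p = 0.601), or 0.43 without UT 1 and 0.49 scaled to RNU-43. All 3 of its UL pools lay above all 3 UT pools, while the other 6 members overlapped, where 13.3% of all microRNAs were apart.

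**Figure D4:**
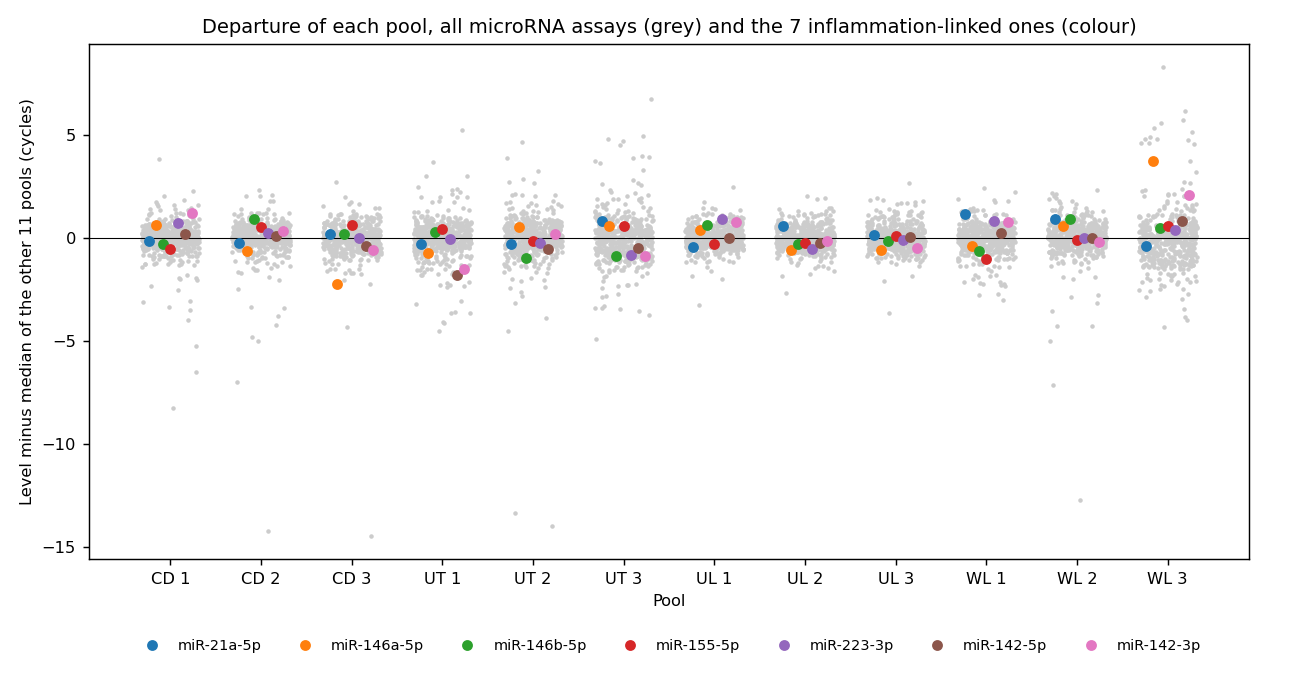
Level of each assay in a pool minus the median of the other 11 pools, in cycles (vertical), for all microRNA assays (grey) and the 7 inflammation-linked ones (colour), by pool (horizontal). MiR-146a-5p in WL 3 lies at 3.72 and in CD 3 at -2.23, and miR-142-3p in WL 3 at 2.07.

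Further microRNAs known from white cells were set beside miR-142 and miR-223. Of 8 measured from a list of other leukocyte microRNAs, 0 passed the test in any comparison. In UT against CD 6 of 8 had values above 0 (48.8% of all microRNAs), with a median of 0.22. Without UT 3, 4 of 8 did, with a median of 0.00033. MiR-150-5p, of mature lymphocytes, was at -0.81 (SE 0.45), or -0.32 without UT 1. MiR-181a-5p, of developing lymphocytes, was at 0.44 (SE 0.45), or 0.13 without CD 1. In WL against CD they were at 0.16 and -0.20, and both changed sign with 1 pool left out, to -0.031 without CD 2 and 0.27 without WL 1.

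Of 17 measured microRNAs of innate signalling, 0 passed, with medians of -0.18 in UT, -0.04 in UL and 0.00 in WL. Values above 0 were seen for 5 of 17 in UT (48.8% of all microRNAs), 7 in UL (43.7%) and 9 in WL (43.5%). Let-7e-5p had a log2 fold change of 0.68 in WL (SE 0.43), or 0.28 without WL 3, and of -0.18 in UT. MiR-125b-5p was at -0.70 in UT (SE 0.38), or -0.47 without UT 2, and at 0.18 in WL. In the other direction in UT, miR-9-5p was at 2.51 and miR-99b-5p at 0.77, or 0.42 and 0.049 without UT 3. Of 7 other microRNAs known as raised in obese fat, among them miR-342-3p of the leukocyte list and miR-132-3p of the innate one, 0 passed. In WL against CD 3 of 7 had values above 0 (43.5% of all microRNAs), and 5 of 7 without WL 3. MiR-379 was at 0.93 (SE 0.55), or 0.15 without WL 3, and miR-335 at 0.44 (SE 0.53), or 0.048 without CD 3. MiR-342-3p was at -0.74 (SE 0.35) and lay between -0.89 and -0.57 with 1 pool left out. MiR-222-3p was at -0.60 (SE 0.79) and turned to 0.28 without WL 3.

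**Figure D5:**
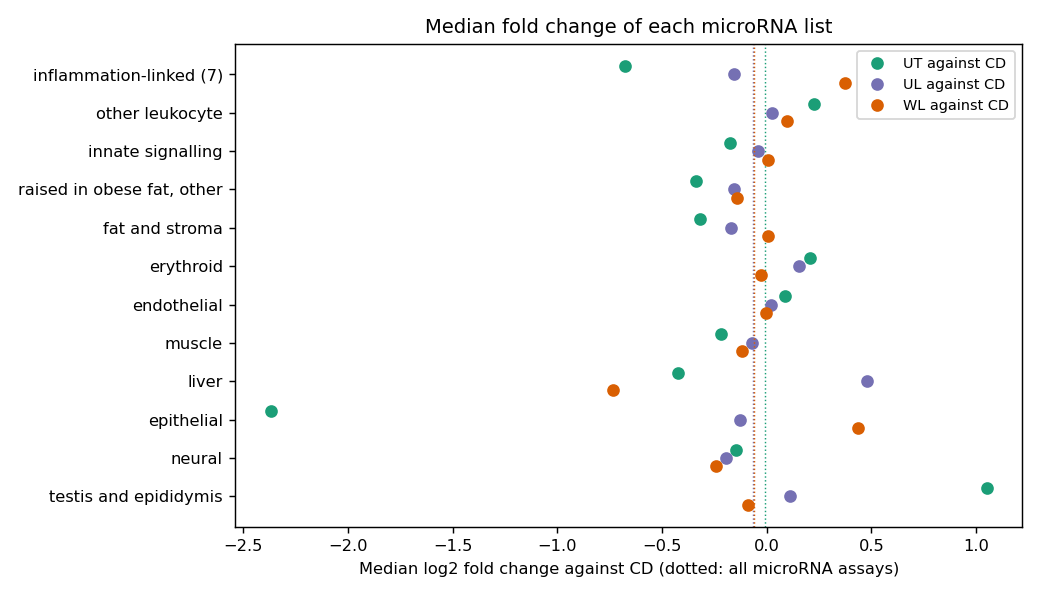
Median log2 fold change against CD (horizontal) of each microRNA list in UT, UL and WL, with dotted lines at the median of all microRNA assays. The epithelial list lies at -2.37 in UT, and the 7 inflammation-linked microRNAs at -0.68.

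Markers of other cell types were followed too, and of all lists the epithelial one had the lowest median log2 fold change in UT. The medians in UT of the erythroid, endothelial, muscle, liver and neural lists were 0.21, 0.09, -0.22, -0.42 and -0.15. The 2 endothelial assays went opposite ways in UT, miR-126a-3p at -1.19 and miR-126a-5p at 1.36 (lower limma adjusted p of the 2, 0.0766). All 6 epithelial microRNAs measured, miR-205-5p and the members of the miR-200 family, lay below CD in UT, with a median of -2.37, and 0 passed the test. Of all microRNAs, 48.8% lay above CD in UT. The mean level of the list ran from 0.24 to 2.25 over the UT pools and from 1.71 to 4.26 over the CD pools, against 2.57 to 3.66 in UL and 2.05 to 4.42 in WL. UT 1, the lowest pool for both arms of miR-142, was also the lowest for this list, at -2.48 from its average, with UT 3 at -2.19. From the same average, UT 2 stood at -0.47, and CD 1, CD 2 and CD 3 at 1.54, -1.01 and 1.27. The highest pool of the list was WL 2, at 1.70, while WL 3 was the highest for both arms of miR-142. Whether the list and miR-142-5p ran together over the pools was not tested.

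The fat and stroma list and the testis and epididymis list had 0 members past the test in UT. The mean level of 11 fat and stroma microRNAs ran from 5.26 to 5.36 in UT, below every CD pool (5.71 to 5.86), every UL pool (5.55 to 5.77) and every WL pool (5.47 to 5.92). Their median log2 fold change in UT was -0.32, with 0 of 11 above 0 (48.8% of all microRNAs). It was -0.53 without UT 1, while 4 of 11 had values above 0 without UT 2. Scaling to RNU-43 moved the median of all microRNAs in UT from -0.01 to 0.73, a larger shift than this median fall. The lower level of the fat and stroma list in UT thus holds relative to the average microRNA. The 8 microRNAs of testis and epididymis, tissues next to this fat, had a mean level of -0.32 in UT and -1.20 in CD. Their log2 fold change was above 0 for 7 of 8 (48.8% of all microRNAs), with a median of 1.05. Without UT 1 these were 5 of 8 and 0.75, and without UT 3 the median was 1.62. UT 1 and UT 2 were 1.42 and 1.12 above that list's average, and UT 3 stood at -0.52. The part of epithelial, stromal, testis or epididymis content in the lower levels of miR-142 and miR-223-3p in UT was not tested.

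The authors' deposited table of fold changes gives, for UT over CD, 2.15 for miR-142-3p, 2.25 for miR-142-5p and 0.524 for miR-146a-5p. Those ratios grow with Ct, so that their direction is opposite to the levels given above. Its WL column was equal, in 506 of 506 assays, to the mean of UL 1, UL 2 and UT 3, none a WL pool, over the CD mean. For miR-142-5p the authors' deposited table lists 1.19 there, where the WL pools' own deposited values give 0.823, and for miR-146a-5p 0.487 against 0.339. The UL column likewise matched UT 2, UT 3 and UL 1 in 506 of 506 assays. It lists 1.77 for miR-146b-5p, where the UL pools' own deposited values give 1.13.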

How the data were processed

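MicroRNAs were measured by RT-PCR in 12 pools of fat, 3 per group. Per the labels' protocols, RNA came from about 22 mg of tissue per sample and was extracted by miRNeasy kit. No source used here names the PCR platform or the threshold rule. Tested here were the raw threshold cycles (Ct); the authors also deposited normalized ratios. Per the file headers, these deposited ratios are 2 to the power of minus delta Ct, but on the values they grow with Ct, by a constant of 24.74 to 25.46 cycles within a pool. The table held 504 microRNA assays, the reference RNAs U6 and RNU-43, and 1 duplicate line that was left out. A filter, Ct under 35 in at least 3 pools, kept 504. Groups were compared with limma 3.58.1 (R 4.3.3; lmFit and eBayes, two-sided) in 1 model of 4 groups, adjusted by Benjamini-Hochberg over 504 microRNAs, and the script was tested on simulated data. The median SE of a log2 fold change against CD was 0.44 in UT and 0.43 in WL; the number of pools limits precision. Exact permutation tests exchanged whole pools. The alternatives were other scalings, filters, variance models, subsets of pools and a replicate block; leaving out single pools for the lists and for comparisons with UT was added once the data had been seen. The members and lists were chosen with earlier results of these data known. The naming rule covered every member, partner arm and assay of the same seed, the 3 microRNAs nearest to each member in profile, the 4 with the highest level in each list, list members past the threshold and the reference RNAs. Of the 4 highest in each list not all are named in the text. Other list members given with values were chosen after their values were seen.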

Additional observations from a re-analysis of the deposited data

How the results depend on the processing

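Under 25 other settings, the count of members called stayed at 0 in all comparisons but WL against UT, where it was 1 (miR-142-5p, limma adjusted p = 0.0459) after the median within-group deviation of the 10 neighbouring assays was subtracted. That setting removes spread within groups by construction, and it called 18 microRNAs in all where the reported setting called 0. With neighbours taken over all pools, a setting added once the data had been seen, the adjusted p was 0.164. The replicate numbers did not pair the pools (correlations -0.27 to 0.26, 7 of 18 over 0.1), and with the replicate block the count was 0 in each comparison. Of 693 single log2 fold changes under these settings, 46 changed sign. Against CD in UT, miR-21a-5p was -0.026 with median scaling, -0.012 with the deposited constant, -0.0062 with neighbours within groups and -0.020 with neighbours over all pools. MiR-155-5p was -0.080 with median scaling, -0.034 with U6 and -0.066 with the deposited constant. U6 had no value in UT 1 and WL 3, so the U6 setting also left these pools out and its changes are not those of scaling alone. Scaled to RNU-43, miR-146b-5p was 0.010 and miR-223-3p 0.063 in UT. In UL, RNU-43 gave 0.21 for miR-146b-5p, 0.031 for miR-155-5p, 0.16 for miR-223-3p, 0.32 for miR-142-5p and 0.14 for miR-142-3p. Neighbours within groups gave -0.014 for miR-21a-5p and 0.057 for miR-142-5p in UL, and neighbours over all pools 0.32 for miR-146b-5p and 0.19 for miR-142-5p. In WL, miR-146b-5p was 0.0034 with RNU-43, 0.16 with U6, 0.085 with neighbours within groups and 0.86 over all pools, where miR-155-5p was 0.017 and miR-223-3p -0.035. Without UT 2 and WL 3, miR-142-3p was -0.017. For WL against the other groups, RNU-43 gave -0.069 for miR-146b-5p. Leaving out 1 pool at a time, UT against CD ran from -0.20 to 0.29 for miR-21a-5p and from -0.26 to 0.27 for miR-155-5p. UL against CD ran from -0.11 to 0.32 for miR-21a-5p, -0.18 to 1.05 for miR-146a-5p, -0.39 to 0.15 for miR-146b-5p, -0.62 to 0.11 for miR-223-3p, -0.22 to 0.075 for miR-142-5p and -0.61 to 0.19 for miR-142-3p. WL against CD ran from -0.32 to 0.38 for miR-146b-5p, -0.72 to 0.042 for miR-155-5p, -0.11 to 0.29 for miR-223-3p and -0.017 to 1.04 for miR-142-3p. WL against the other groups ran from -0.029 to 0.68 for miR-146b-5p and -0.63 to 0.13 for miR-155-5p. The cause of these changes was not tested. With 3 pools per group, the SE of a member's log2 fold change against CD ran from 0.40 for miR-142-5p to 0.87 for miR-146a-5p, which limits the changes that could be told from the spread between pools.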

Other observations

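By profile over the 12 pools, the microRNA nearest to each member among 465 others was seldom a member. MiR-223-3p was nearest to miR-30b-5p (root mean square difference 0.26 cycles), miR-21a-5p to miR-101a-5p (0.33), miR-155-5p to miR-302d-5p (0.34), miR-146b-5p to miR-374b-5p (0.35) and miR-146a-5p to miR-344-5p (0.72). Next in order came miR-337-3p and miR-181a-1-3p for miR-223-3p, miR-224-5p and miR-181b-5p for miR-21a-5p, miR-448-5p and miR-381-5p for miR-155-5p, miR-214-3p and miR-125a-5p for miR-146b-5p, and miR-350-5p and miR-32-5p for miR-146a-5p. The third was miR-324-5p for miR-142-5p, while miR-148a-3p and miR-497-5p followed miR-142-5p for miR-142-3p. MiR-146b-5p was the 177th nearest to miR-146a-5p, at 1.31 cycles. Of the 7 members, miR-142-3p was nearest to miR-146a-5p, in the 10th place at 0.88 cycles, and both were high in WL 3. These profiles share the pools, so the distances describe these 12 pools and carry no test.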
